A study of Mus musculus with 78 samples.

Results

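The 3 arrays described here hold RNA of retinal microglia sorted from the adult Csf2rb2 mouse line, out of 78 arrays of fluorescent retinal cell populations. They were set against 30 arrays of retinal neurons that carry the same batch label, 3. They were taken by their labelled line and batch, not by any measured value, and every probe set with 1 gene symbol was used. The series covers 22 transgenic lines in biological triplicate. Which animals contributed to a replicate is not given in the sources used here, so p-values rest on how far the 3 arrays of a line differed. For each array 200 fluorescent cells were sorted from retina dissociated with papain for 15 min, and the RNA was hybridized to an Affymetrix Mouse Gene 1.0 ST array.

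The microglia came from Tg(Csf2rb2-EGFP)334Gsat mice, in which Csf2rb2 sequence drives EGFP, and the sorted cells are labelled GFP. The neurons came from 10 lines of 3 arrays each. Horizontal cells were sorted from the Gja10 line, B6Cf1-Tg(Gja10-Cre, #14)BR crossed with Rosa26-LSL-RFP. Bipolar cells were sorted from the Kcng4 line, B6Cf1-Tg(Kcng4-CreERT2, #)BR crossed with Rosa26-LSL-RFP, and from the Lhx4 line, Tg(Lhx4-EGFP)199Gsat. Amacrine cells were sorted from the lines Arc 3rd, Tg(Arc-EGFP)194Gsat/Mmcd, Igfbp2, Tg(Igfbp2-EGFP)17Gsat, Rgs5, Tg(Rgs5-EGFP)24Gsat, and Crh, Tg(Crh-Cre)282Gsat/Mmnc crossed with Rosa26-LSL-RFP. Ganglion cells were sorted from the lines Drd4, Tg(Drd4-EGFP)W18Gsat/Mmnc, Grik4, C57BL/6-Tg(Grik4-Cre)G32-4Stuj crossed with Rosa26-LSL-RFP, and Opn4, mOpn4-Cre1D4 crossed with Rosa26-LSL-RFP. The Lhx4, Arc 3rd, Igfbp2 and Rgs5 cells are labelled GFP like the microglia and the other neurons RFP, the Drd4 cells included although their line name carries EGFP. Every line is labelled as of mixed FVB/N-Swiss Webster and C57BL/6J background. According to the growth protocol, the repository mice came from hybrids known for a recessive mutation that causes photoreceptor degeneration and were backcrossed to C57BL/6J. All 11 populations share the short dissociation and the fluorescence sort, and none is an unsorted retina.

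Microglia are the resident macrophages of the retina. They depend on signalling through the receptor CSF1R, whose ligands are CSF1 and IL-34, and they survey the synaptic layers with motile processes, tag and engulf synaptic material with the help of complement, and sense debris and pathogens through Toll-like, Fc and TREM2 receptors coupled to ITAM adaptors such as TYROBP. The transcription factor PU.1, encoded by Spi1, is required for the lineage. Csf2rb2 encodes a mouse-specific receptor subunit for interleukin 3, a close paralog of the common beta chain Csf2rb that serves interleukin 3, interleukin 5 and GM-CSF.

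Intensities are given on the linear scale of the deposited table, each probe set on its own scale, and differences are log2 values, Csf2rb2 minus the unweighted mean of the 10 neuron lines, after values below a floor of 3.99 were raised to it. Calls by limma needed an adjusted p under 0.05 together with an absolute log2 difference of 1 or more. Of 22347 probe sets, 19446 carried 1 gene symbol and 14655 of these, for 14551 genes, were brighter than the median of all values, 9.01, in at least 1 of the 11 lines and were tested. In bulk samples such as these, fewer cells of a type and less RNA per cell cannot be told apart.

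Microglia and neurons differed in 2760 of the 14655 probe sets (18.8%), with 1234 called higher in the Csf2rb2 arrays (8.42%) and 1526 called lower (10.4%). The largest differences without overlap were those of the chemokine gene Ccl3 on the higher side and of Amy1, which encodes an amylase, on the lower side. At 16-fold or more, 126 probe sets were higher and 44 lower, and at 32-fold or more 63 were higher and 17 lower, so that the largest differences lay more often on the higher side although the lower calls were more numerous. In 652 probe sets called higher (4.45%) all 3 Csf2rb2 arrays lay above all 30 neuron arrays, and in 513 called lower (3.5%) all 3 lay below them. Called or not, the 3 arrays lay above all neurons in 720 probe sets (4.91%), below them in 587 (4.01%) and outside their range in 1307 (8.92%), and 6033 (41.2%) had an unadjusted p below 0.05. With each line reduced to 1 mean, so that 1 Csf2rb2 mean stood against 10 neuron means, 1382 probe sets were called, 768 higher and 614 lower; named genes whose call is lost in that fit are given below.

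**Figure D1:**
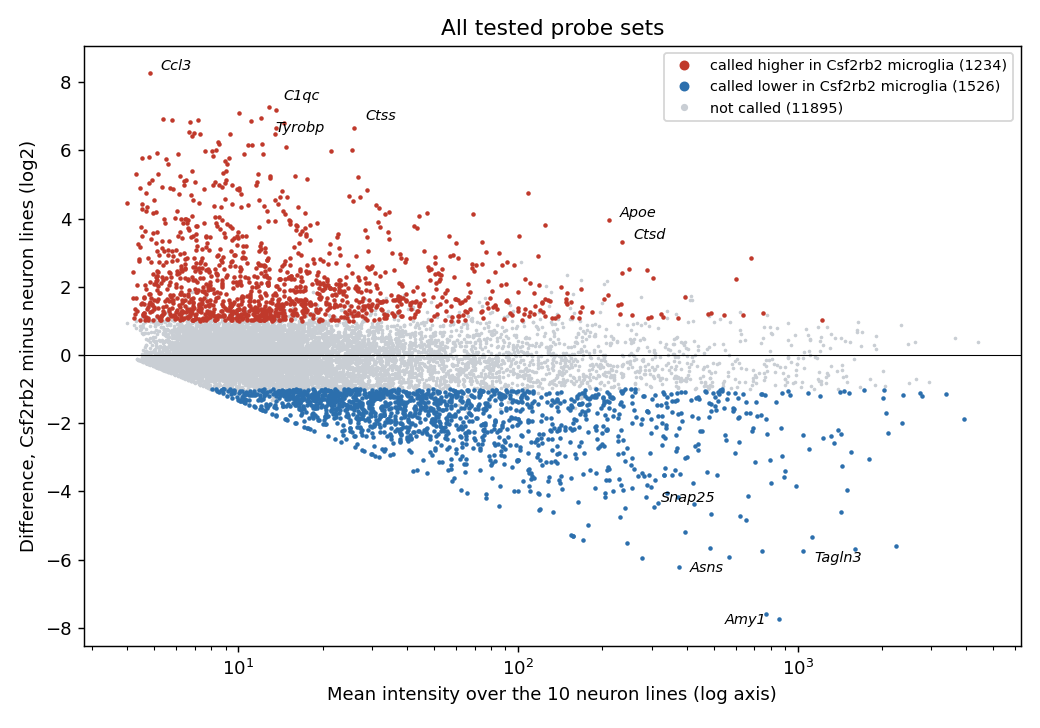
Difference between Csf2rb2 microglia and the 10 neuron lines (log2, vertical axis) against the mean intensity over the neuron lines (horizontal log axis) for every tested probe set, 1 point each. The 1234 red points were called higher and the 1526 blue points lower; Ccl3 lies at 8.26 and Amy1 at -7.74, and the slanting lower edge of the cloud is set by the floor.

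The label was checked against marker genes of the retina. Over 16 microglia markers the summed intensity was 13972, 14298 and 13480.0 in the Csf2rb2 arrays and from 105.4 to 2436 with a median of 137 in the neuron arrays, so the 3 arrays lay within a narrow range and above all neuron arrays. Over 12 pan-neuronal markers it was 174, 176 and 184 in the Csf2rb2 arrays and from 439 to 3130.3 with a median of 1509.9 in the neuron arrays, with the groups again apart and the microglia low. Among the neuron lines, mean sums were highest in Gja10 for horizontal markers (2913), in Lhx4 for bipolar markers (4981), in Crh for amacrine markers (2375) and in Drd4 for ganglion markers (2786), each a line labelled with that class. Drd4, however, averaged 1746.5 for amacrine markers, above the amacrine lines Arc 3rd (1477.5), Rgs5 (1356.9) and Igfbp2 (1312.9), and 2196 for bipolar markers. Mean rod sums were 2152 in Crh and 2027 in Drd4, and the part of other cells in these lines was not tested. Markers of astrocytes, oligodendrocytes, endothelial cells, pericytes and pigment epithelium gave sums in the Csf2rb2 arrays inside the range of the neuron arrays. Rod markers summed to 616, 1097 and 527 in the Csf2rb2 arrays, against 41.7 to 4338 with a median of 369 in the neuron arrays. Pde6a, Pde6b, Pde6g, Cnga1 and Rp1 were at or below the floor in all 3 Csf2rb2 arrays. The neuron medians of these genes lay below the floor too, with highest neuron arrays of 5.16, 2.93, 14.1, 56.2 and 3.95. Prph2 read 152, 290 and 75.8 in the Csf2rb2 arrays, against 0.115 to 1817 with a median of 104 in the neuron arrays. Rom1 read 73.0, 174 and 36.7 in the Csf2rb2 arrays, against 0.0565 to 1153 with a median of 40.7 in the neuron arrays. Gnat1, the alpha subunit of rod transducin, read 96.98, 140.1 and 93.3 in the Csf2rb2 arrays and 0.0238 to 2362 in the neuron arrays. Pdc and Sag, which encode phosducin and rod arrestin, were called higher in the Csf2rb2 arrays, at least 3.56 and 3.79. Pdc read 184.4, 250.5 and 189.1 in the Csf2rb2 arrays, against 0.0729 to 164.0 with a median of 21.7 in the neuron arrays. All 3 Csf2rb2 arrays thus lay above all neuron arrays for Pdc. Sag read 78.8, 225.1 and 120.0 in the Csf2rb2 arrays, against 0.0671 to 209.4 with a median of 1.99 in the neuron arrays. For Sag only replicate 2 lay above the neurons. Both calls were lost with 1 mean per line, that of Pdc also without replicate 2. The part of rod RNA in these results was not tested. The Müller glia sum was 2946, 5169.7 and 3878 in the Csf2rb2 arrays. In the neuron arrays it ran from 456 to 8807 with a median of 898. Most of the Csf2rb2 sum was Apoe, a gene of both Müller glia and macrophages, at 2583, 4902 and 2744. Vim and Glul were high in replicate 3 alone, at 47.5, 23.5 and 377 and at 55.2, 49.5 and 629.6 in the Csf2rb2 arrays. The part of Müller glia RNA in these results was not tested.

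Other blood-derived cells that the sort could hold were also looked for. Markers of monocytes and perivascular macrophages summed to 232, 307 and 1334 in the Csf2rb2 arrays and from 41.04 to 118 with a median of 52.8 in the neuron arrays; the excess lay in replicate 3 above all. Lyz2, the lysozyme of myeloid cells, read 106, 237 and 469.6 in the Csf2rb2 arrays, against 3.16 to 33.9 with a median of 5.59 in the neuron arrays, and Plac8, a gene of circulating myeloid cells, read 26.2, 6.48 and 801 in the Csf2rb2 arrays, against 2.28 to 12.2 with a median of 3.81 in the neuron arrays. Ccr2, the receptor that marks classical monocytes, read 3.703, 4.34 and 19.4 in the Csf2rb2 arrays, against 2.64 to 9.58 in the neuron arrays. Replicate 3 alone lay above the neurons, and Ccr2 was not called (0.61). It was called higher without replicate 1, and its difference turned negative without replicate 3. Of the markers of perivascular macrophages, Ms4a7, a membrane protein of macrophages, read 28.7, 11.4 and 11.1 in the Csf2rb2 arrays, against 3.16 to 12.9 with a median of 4.502 in the neuron arrays, and was called higher with overlap (log2 difference 1.59 ± 0.27 SE, adjusted p = 3.0e-05), a call that was lost with the floor at the median of all values. Pf4, which encodes platelet factor 4, was called as well and is described with the genes that differ among the replicates. Lyve1 and F13a1 were not called (-0.29 and 0.37). Mrc1 and Cd163 did not reach the brightness required for testing. Mrc1 stayed within the neuron range, and Cd163 read 5.33, 7.62 and 4.298 in the Csf2rb2 arrays, against 4.07 to 7.08 in the neuron arrays, so that replicate 2 lay above it. Neutrophil markers summed to 171, 598 and 108 in the Csf2rb2 arrays and from 37.3 to 67.1 with a median of 43.1 in the neuron arrays, the highest value being replicate 2. S100a8 read 92.8, 172 and 43.6 in the Csf2rb2 arrays, against 2.58 to 11.4 with a median of 3.91 in the neuron arrays, and Retnlg, which encodes a resistin-like secreted protein of neutrophils, read 10.9, 204 and 15.3 in the Csf2rb2 arrays, against 4.82 to 9.79 with a median of 6.09 in the neuron arrays. S100a9, which encodes the partner of S100A8 in calprotectin, read 41.8, 162 and 10.9 in the Csf2rb2 arrays, against 5.4998 to 12.1 with a median of 6.57 in the neuron arrays, and was called higher (log2 difference 2.58 ± 0.37 SE, adjusted p = 2.2e-06). Mmp8, the neutrophil collagenase, read 4.37, 38.2 and 19.5 in the Csf2rb2 arrays, against 3.37 to 8.51 with a median of 4.27 in the neuron arrays, and was called higher too (log2 difference 1.69 ± 0.31 SE, adjusted p = 8.3e-05). For each of them 1 Csf2rb2 array lay within the neuron range, replicate 3 for S100a9 and replicate 1 for Mmp8. The remaining 4 of the 8 neutrophil markers, Ly6g, Camp, Ltf and Ngp, gave no value in the Csf2rb2 arrays above the highest neuron array. Of the 9 lymphocyte markers Cd79b, a B cell receptor subunit also listed among microglial genes, was called higher (log2 difference 2.92 ± 0.18 SE, adjusted p = 1.8e-13). Il7r, the interleukin 7 receptor, read 12.9, 4.83 and 12.3 in the Csf2rb2 arrays, against 3.297 to 9.31 with a median of 4.68 in the neuron arrays; replicates 1 and 3 lay above all neurons, and the difference of 0.86 was below the size required for a call. Cd3e, a T cell receptor subunit, was above the neurons in replicate 3 alone, at 12.8, 10.3 and 13.6 in the Csf2rb2 arrays, against 4.66 to 12.9 in the neuron arrays (0.36, not called). The other 6, Cd3d, Cd3g, Nkg7, Gzma, Ms4a1 and Cd79a, did not exceed the neuron range. The 8 dendritic cell markers summed to 58.2, 64.6 and 47.2 in the Csf2rb2 arrays, against 48.4 to 69.7 in the neuron arrays. Only Flt3 and Ccr7 among them were bright enough to be tested, and neither was called. The part of such cells in the results was not tested; values that move with replicate 2 or 3 are given beside the groups concerned.

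**Figure D2:**
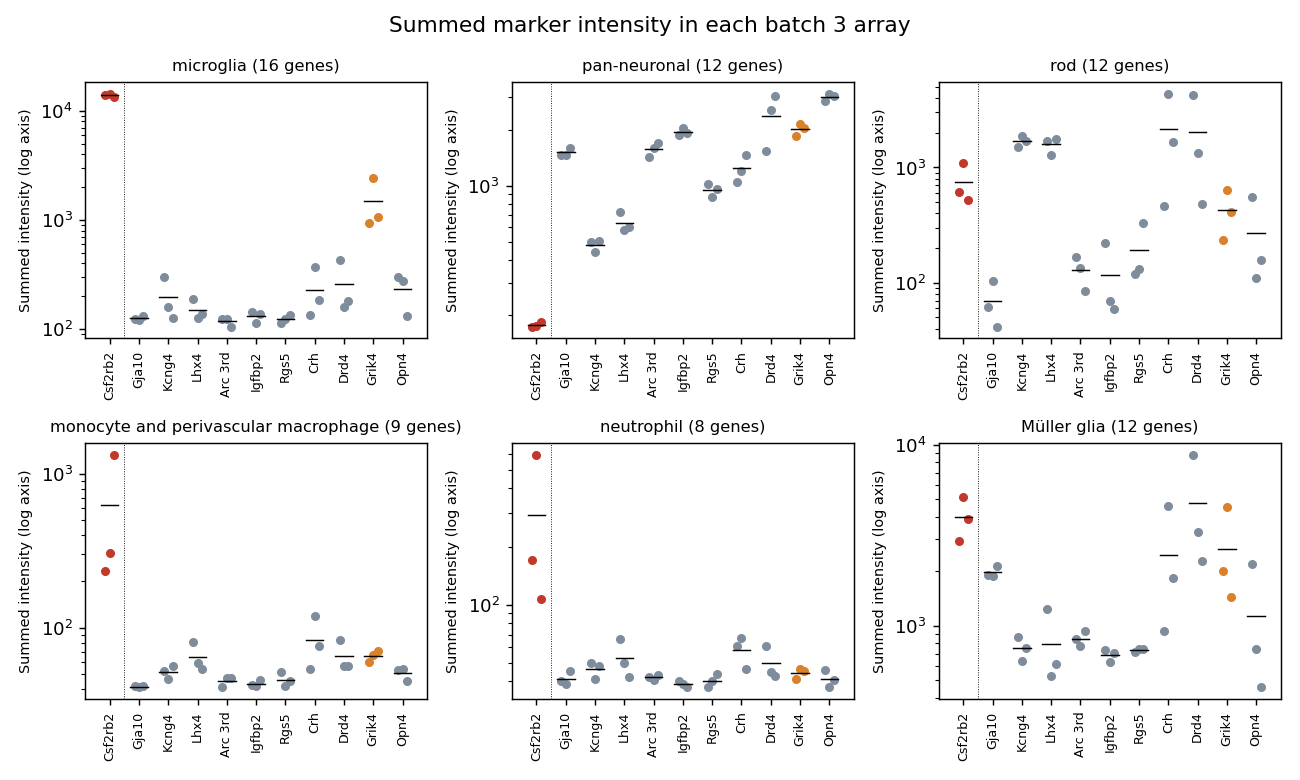
Summed intensity (log axis) of the markers of 6 cell types in each of the 33 arrays, with 3 points and their mean (bar) per line, Csf2rb2 at the left in red and Grik4 in orange. Microglia markers separate the Csf2rb2 arrays from all neurons, the Grik4 line lies between the other neurons and the microglia, and within Csf2rb2 replicate 3 is high for monocyte markers and replicate 2 for neutrophil markers.

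Among the neurons, the Grik4 ganglion cells had the highest intensities of microglia markers. Their 3 arrays had microglia marker sums of 945.8, 2436 and 1064, that is 10.7% of the Csf2rb2 mean on average, whereas no other neuron line averaged more than 1.84%. Grik4 was the highest neuron line for 315 of the 1234 probe sets called higher (25.5%), against 8.24% of all tested probe sets. Among the 126 probe sets at least 16-fold higher in the Csf2rb2 arrays, Grik4 exceeded the mean of the other 9 neuron lines by a median of 1.17 (log2), against a median of -0.0021 over all tested probe sets, yet not all of them followed. C1qc read 75.6, 349.6 and 148.0 in the Grik4 arrays and Cx3cr1 80.6, 286.1 and 116.9, while Ccl3, at 961, 2537 and 1324 in the Csf2rb2 arrays, read 4.44, 3.84 and 6.09 there and Ccl4 read 7.61, 11.1 and 9.71. Both chemokines were within the range of the other neuron arrays in the same Grik4 arrays in which C1q and fractalkine receptor transcripts stood out; they were picked out after their values were seen. The Grik4 line also had the highest mean sums of endothelial and pigment epithelium markers among the neuron lines, 969 and 1497, and the part of other cells in these arrays was not tested. With Grik4 left out, 1240 probe sets were called higher and 1507 lower, close to the counts with it, and the differences of identity genes given here are measured against a mean that holds it.

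The microglia identity list, genes known as marks of microglia, rose as a whole: all 22 tested members of 24 listed were called higher, with a median difference of 5.10 against -0.06 for all tested probe sets. Beside this count and each list count below stand the shares over all tested probe sets, 8.42% called higher and 10.4% called lower. A gene dim in all neuron lines was tested only where it was bright in the Csf2rb2 arrays, so the filter favours higher calls. Ccl3, which encodes the chemokine MIP-1 alpha, read 961, 2537 and 1324 in the Csf2rb2 arrays, against 3.38 to 12.7 with a median of 4.44 in the neuron arrays (log2 difference 8.26 ± 0.23 SE, adjusted p = 1.3e-20). C1qc, a chain of complement C1q, read 1942, 2046 and 1927 in the Csf2rb2 arrays, against 4.37 to 349.6 with a median of 7.66 in the neuron arrays (log2 difference 7.26 ± 0.44 SE, adjusted p = 1.1e-13). Every microglia array exceeded every neuron array for both genes. Cx3cr1, the fractalkine receptor, read 1661, 915 and 1601 in the Csf2rb2 arrays, against 4.31 to 286 with a median of 18.2 in the neuron arrays (log2 difference 5.97 ± 0.43 SE, adjusted p = 5.9e-12). Csf1r, the receptor on which microglia depend, read 608, 378 and 381 in the Csf2rb2 arrays, against 6.12 to 39.6 with a median of 7.54 in the neuron arrays (log2 difference 5.61 ± 0.25 SE, adjusted p = 1.4e-16). These groups did not overlap either, and the highest neuron array for C1qc, Cx3cr1 and Csf1r was a Grik4 array.

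Genes that separate microglia from other macrophages in the brain were among the members that rose. Tmem119 read 451, 387 and 572 in the Csf2rb2 arrays, against 6.095 to 104.9 with a median of 9.12 in the neuron arrays (log2 difference 5.31 ± 0.30 SE, adjusted p = 3.3e-14). P2ry12, the purinergic receptor that steers process movement towards ATP, read 23.8, 23.6 and 33.2 in the Csf2rb2 arrays, against 3.04 to 19.9 with a median of 4.86 in the neuron arrays (log2 difference 2.27 ± 0.26 SE, adjusted p = 7.0e-08). Sall1, a transcription factor that holds microglial identity in mice, read 21.2, 17.2 and 30.4 in the Csf2rb2 arrays, against 5.35 to 15.1 with a median of 7.41 in the neuron arrays (log2 difference 1.496 ± 0.18 SE, adjusted p = 1.9e-07). All 3 genes had non-overlapping groups, with a wide gap for Tmem119 and a narrow one for P2ry12 and Sall1. Of the other members of the identity list, Siglech, Fcrls, P2ry13, Aif1, Cd33 and Trem2 rose by 5.35, 5.14, 5.05, 4.98, 4.86 and 4.81, likewise without overlap. The smallest differences were those of Slc2a5, a fructose transporter (1.29), and Sall1, and Olfml3 overlapped with the Gja10 horizontal cells, with 669, 803 and 466 in the Csf2rb2 arrays, against 3.29 to 553 with a median of 26.3 in the neuron arrays (4.19). The calls of Olfml3 with 1 mean per line and of Slc2a5 with the floor at the median of all values were lost.

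**Figure D3:**
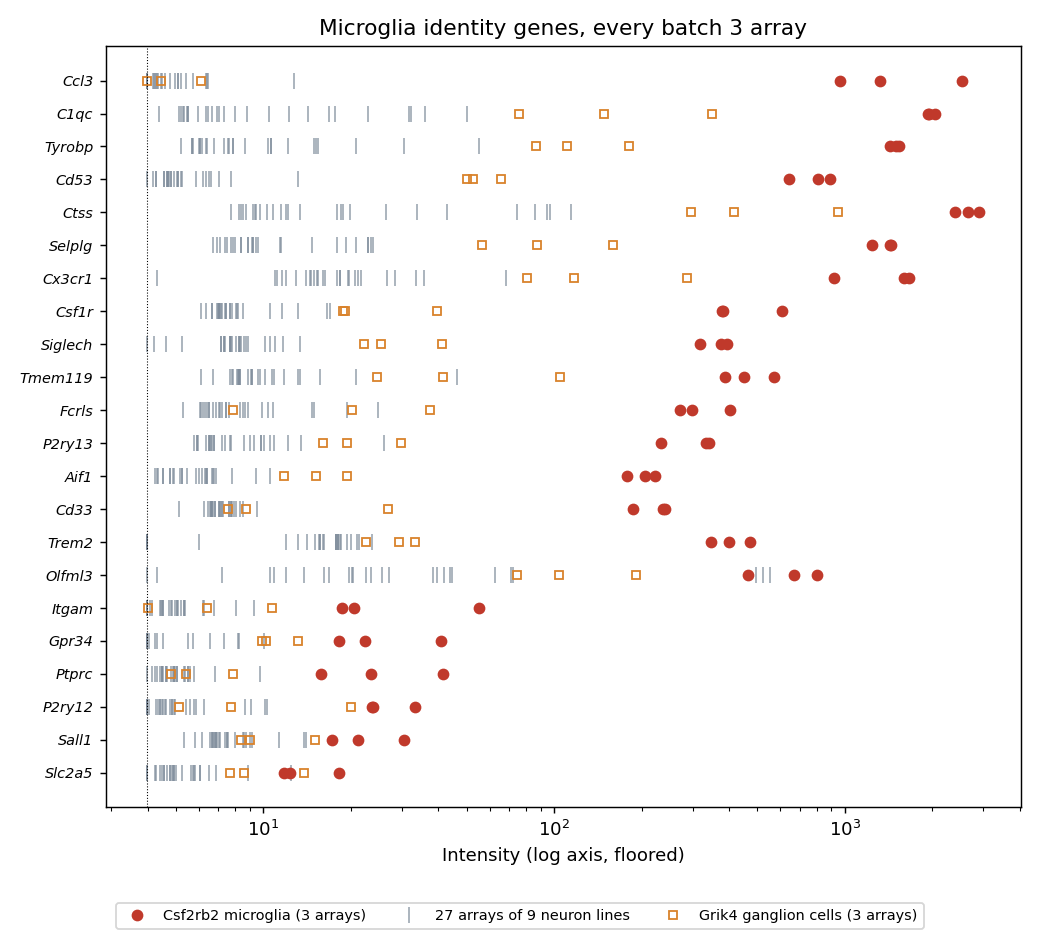
Intensity (log axis, values below the dotted floor drawn at it) of the 22 tested microglia identity genes in every batch 3 array, 1 symbol per array, genes ordered by their difference. The 3 red Csf2rb2 arrays lie right of all neuron arrays for 20 of the 22 genes, the exceptions being Olfml3 and Slc2a5; the orange Grik4 arrays lie between the groups for many genes but not for Ccl3.

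Promoters of the leading genes are shown because members that moved together may share sequence letters; the windows run from 250 bases before to 50 after the annotated gene start, from RefSeq on GRCm38.p6. The letters GAGGAAGT, which contain the GAGGAA of the sites that PU.1 binds, were searched on both strands (ACTTCCTC on the other strand). They occurred in 50 of 518 genes with a window among those called higher without overlap (9.65%), in 10 of 405 called lower without overlap (2.47%) and in 391 of all 11591 tested genes with a window (3.37%). For the 6 letters GAGGAA the shares were 40.3%, 30.4% and 30.1%, and for TGACTCA, the letters of AP-1 sites, 6.18%, 2.72% and 4.75%. Of the 15 genes with the largest increase, 11 had a window and 4 of these held GAGGAAGT or ACTTCCTC: C1qc at chr4:136892865-136893164 on the minus strand, Tlr1 at chr5:64933509-64933808 on the minus strand, Cd53 at chr3:106790100-106790399 on the minus strand and Ctss at chr3:95526536-95526835 on the plus strand; of the 15 with the largest decrease, 12 had a window and 0 held them. In the lines below capitals mark the match, each sequence reads in the direction of the gene, and the first match begins at position -195 in C1qc, counted with 1 as the first base of the gene and -1 as the base before it, at -23 in Tlr1, 7 in Cd53 and -2 in Ctss.
C1qc: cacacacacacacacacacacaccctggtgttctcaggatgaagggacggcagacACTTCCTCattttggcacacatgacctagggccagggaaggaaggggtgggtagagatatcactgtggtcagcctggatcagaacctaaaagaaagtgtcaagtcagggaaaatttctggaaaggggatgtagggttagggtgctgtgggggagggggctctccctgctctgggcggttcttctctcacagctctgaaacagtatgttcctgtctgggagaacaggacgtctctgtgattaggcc
Tlr1: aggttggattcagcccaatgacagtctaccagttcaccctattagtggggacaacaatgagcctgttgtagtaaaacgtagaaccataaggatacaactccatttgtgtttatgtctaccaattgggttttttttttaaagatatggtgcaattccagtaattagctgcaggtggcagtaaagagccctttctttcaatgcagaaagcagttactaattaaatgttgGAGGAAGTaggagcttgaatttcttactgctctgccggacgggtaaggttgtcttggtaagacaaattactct
Cd53: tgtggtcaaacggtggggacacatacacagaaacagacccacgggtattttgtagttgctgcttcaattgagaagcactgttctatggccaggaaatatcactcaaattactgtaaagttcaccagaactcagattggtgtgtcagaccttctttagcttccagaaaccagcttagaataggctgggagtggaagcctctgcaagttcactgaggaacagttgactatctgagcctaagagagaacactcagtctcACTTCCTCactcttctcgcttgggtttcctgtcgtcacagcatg
Ctss: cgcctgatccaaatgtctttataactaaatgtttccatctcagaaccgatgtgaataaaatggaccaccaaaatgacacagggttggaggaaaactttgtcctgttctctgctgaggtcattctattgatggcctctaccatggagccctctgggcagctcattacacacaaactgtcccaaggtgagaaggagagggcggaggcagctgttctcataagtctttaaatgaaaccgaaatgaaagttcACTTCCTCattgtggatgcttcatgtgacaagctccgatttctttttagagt
A match describes the letters alone; windows without one were not searched further, and no binding was measured.

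The 15 genes with the largest increase among probe sets called higher without overlap included the complement genes C1qb, C1qc and C3ar1. Cd14, the lipopolysaccharide co-receptor, read 2046, 1942 and 1912 in the Csf2rb2 arrays, against 3.93 to 397 with a median of 7.95 in the neuron arrays (log2 difference 7.17 ± 0.59 SE, adjusted p = 8.2e-11). Tyrobp, the ITAM adaptor of TREM2, read 1539.8, 1503 and 1429.5 in the Csf2rb2 arrays, against 5.22 to 181 with a median of 7.87 in the neuron arrays (log2 difference 6.96 ± 0.35 SE, adjusted p = 2.2e-15). Ctss, the lysosomal protease cathepsin S, read 2896, 2394 and 2655 in the Csf2rb2 arrays, against 7.75 to 951 with a median of 15.6 in the neuron arrays (log2 difference 6.67 ± 0.54 SE, adjusted p = 6.2e-11). In each case the 3 microglia arrays agreed within a narrow range while the neurons spread widely, with Grik4 the highest neuron line. The other members were Tmem273 (7.09), Cd48 (6.91), Tlr1 (6.90), Gpr65 (6.90), C1qb (6.86), Cd53 (6.84), Ly86 (6.80), Selplg (6.65), C3ar1 (6.54) and Cd52 (6.50), beside Ccl3 and C1qc. Among these Gpr65 encodes a proton-sensing receptor, Cd53 a tetraspanin, Ly86 the partner MD-1 of the receptor CD180, Selplg the selectin ligand PSGL-1 and C3ar1 the receptor for the complement fragment C3a. Their calls held in each of the 59 alternative fits. The fits reuse the arrays from which these genes were chosen and are no separate support.

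The driver gene of the line was measured with a small difference. Csf2rb2 read 16.2, 9.75 and 17.8 in the Csf2rb2 arrays, against 4.85 to 9.74 with a median of 6.497 in the neuron arrays (log2 difference 1.10 ± 0.18 SE, adjusted p = 1.4e-05), so the groups did not overlap, but replicate 2 lay just above the highest neuron array, and the call was lost without replicate 3 or with the floor at the median of all values. Its paralog Csf2rb read 6.38, 7.36 and 10.46 in the Csf2rb2 arrays, against 3.62 to 13.7 with a median of 6.18 in the neuron arrays and was not called (log2 difference 0.34 ± 0.20 SE, adjusted p = 0.2). The 2 genes are closely similar in sequence, so how the probes divide their signal is uncertain. In the list of colony-stimulating factor receptors and ligands, 5 of 9 tested genes rose and 0 fell (12 listed). Besides Csf1r and Csf2rb2 these were Csf2ra, the ligand-binding chain of the GM-CSF receptor, with 117, 81.8 and 128 in the Csf2rb2 arrays, against 20.5 to 73.8 with a median of 43.7 in the neuron arrays (log2 difference 1.30 ± 0.23 SE, adjusted p = 5.8e-05), Csf3r, the G-CSF receptor (log2 difference 1.91 ± 0.19 SE, adjusted p = 3.0e-09), and Csf1 itself (log2 difference 1.65 ± 0.20 SE, adjusted p = 2.1e-07). Il34, the second ligand of CSF1R, read 12.4, 14.1 and 10.7 in the Csf2rb2 arrays, against 8.06 to 43.99 with a median of 19.05 in the neuron arrays and was not called (log2 difference -0.52 ± 0.24 SE, adjusted p = 0.11).

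Transcription factors of the myeloid lineage rose in 13 of 17 tested genes and fell in 0 (20 listed, median 1.496). Spi1, which encodes PU.1, read 29.3, 77.5 and 104.9 in the Csf2rb2 arrays, against 3.05 to 8.998 with a median of 4.84 in the neuron arrays (log2 difference 3.60 ± 0.22 SE, adjusted p = 2.1e-13). Irf8, its partner in myeloid cells, read 28.3, 101.3 and 64.03 in the Csf2rb2 arrays, against 7.58 to 18.9 with a median of 11.9 in the neuron arrays (log2 difference 2.29 ± 0.23 SE, adjusted p = 4.1e-09). Both were apart from the neurons in all arrays, with replicate 1 the lowest of the 3 microglia arrays each time. Mef2c, which restrains microglial activation, had 109, 31.9 and 59.1 in the Csf2rb2 arrays (3.57), with replicate 1 the highest. Further increases were those of Batf3 (3.42), Cebpa (2.35), Runx1 (2.29), Irf5 (1.83), Ikzf1 (1.15) and Stat6 (1.32), of which Ikzf1 was lost with the floor at the median and Stat6 without replicate 3. Maf and Tfec, both factors of macrophages, were not called (0.44 and 0.47); Tfec read 3.56, 19.1 and 7.67 in the Csf2rb2 arrays and took a negative difference of -0.13 without replicate 2.

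Of 17 tested complement genes (23 listed), 7 rose and 3 fell, beside 8.42% of all tested probe sets called higher and 10.4% called lower. With 1 mean per line 7 members were called higher and 0 lower. The 3 chains of C1q, which starts the classical pathway, rose together, with C1qa at 1336, 1139.5 and 1131 in the Csf2rb2 arrays, against 5.28 to 237 with a median of 9.86 in the neuron arrays (log2 difference 6.47 ± 0.40 SE, adjusted p = 2.4e-13) beside C1qb and C1qc. The receptors rose as well: C3ar1, the C5a receptor C5ar1 (1.95), and both chains of complement receptor 3, Itgam (2.42) and Itgb2 (3.48), all without overlap. The 3 that fell encode regulators. Cd59a, which blocks the membrane attack complex, read 1.43, 2.14 and 1.58 in the Csf2rb2 arrays, all below the floor. Its neuron arrays read 0.194 to 129 with a median of 22.9 (log2 difference -2.54 ± 0.37 SE, adjusted p = 2.9e-06). The floor thus sets the size of the Cd59a difference in part. Serping1, the C1 inhibitor, read 14.9, 5.76 and 6.58 in the Csf2rb2 arrays, against 6.02 to 65 with a median of 19.99 in the neuron arrays (log2 difference -1.29 ± 0.37 SE, adjusted p = 0.0072). Cfp, properdin, which stabilises the alternative convertase, read 7.699, 11.3 and 38.2 in the Csf2rb2 arrays, against 16.9 to 80.8 with a median of 35.8 in the neuron arrays (log2 difference -1.40 ± 0.32 SE, adjusted p = 9.3e-04). Each of these overlapped with neuron arrays, and all 3 calls were lost with 1 mean per line; Serping1 was lost in 5 alternative fits, among them those without replicate 2 or 3, and Cfp was also lost without replicate 1. Cfp, in addition, was high in replicate 3, the array with high monocyte markers, whose part was not tested. C3 was not analysed here.

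Pattern recognition genes rose in 12 of 16 tested members and fell in 0 (22 listed, median 3.13). Tlr2, which senses bacterial lipoproteins, read 866, 951 and 711 in the Csf2rb2 arrays, against 5.19 to 59.8 with a median of 8.48 in the neuron arrays (log2 difference 6.49 ± 0.26 SE, adjusted p = 1.5e-17), and Tlr1, its partner, rose as described. Tlr7, an endosomal receptor for single-stranded RNA, read 185, 360.2 and 233 in the Csf2rb2 arrays, against 2.85 to 9.88 with a median of 3.497 in the neuron arrays (log2 difference 5.78 ± 0.20 SE, adjusted p = 7.0e-19). Both groups were widely apart. Cd180, a relative of TLR4, read 106, 109 and 95.01 in the Csf2rb2 arrays, against 4.63 to 9.14 with a median of 6.36 in the neuron arrays (log2 difference 4.00 ± 0.13 SE, adjusted p = 1.4e-19), with the 3 microglia arrays close together. Tlr6, Ly96 and the adaptor Myd88 rose by 4.41, 3.50 and 2.77. Tlr4 itself had a smaller difference and overlapped, with 32.7, 10.1 and 21.8 in the Csf2rb2 arrays, against 2.52 to 10.46 with a median of 4.02 in the neuron arrays (2.06), and Tlr9, a receptor for DNA, was not called (0.59).

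Chemokine and cytokine genes rose in 14 of 19 tested members and fell in 1 (22 listed, median 2.26). Next to Ccl3, Ccl4, which encodes MIP-1 beta, read 267, 624 and 330.0 in the Csf2rb2 arrays, against 6.64 to 13.2 with a median of 8.902 in the neuron arrays (log2 difference 5.40 ± 0.18 SE, adjusted p = 7.3e-19). Ccl12, a monocyte-attracting chemokine of mice, read 248, 273 and 275 in the Csf2rb2 arrays, against 3.04 to 14.6 with a median of 4.01 in the neuron arrays (log2 difference 5.79 ± 0.23 SE, adjusted p = 1.7e-17). Replicate 2 had the highest value of Ccl3 and Ccl4, while Ccl12 was even across the arrays. Cxcl16, Ccl6, Ccl5, Il1a, Tgfb1, Il18 and Il1b rose by 4.57, 4.08, 3.49, 2.81, 2.26, 1.34 and 1.12, of which Il18 was lost with 1 mean per line and with the 4 classes of neurons weighted equally in place of the 10 lines, and Il1b without replicate 3. Several inflammatory genes were high in replicate 2, the array with high neutrophil markers: Cxcl10, an interferon-induced chemokine, read 31, 203 and 19.4 in the Csf2rb2 arrays, against 3.57 to 9.97 with a median of 4.73 in the neuron arrays (log2 difference 3.29 ± 0.34 SE, adjusted p = 8.1e-09), and Tnf read 8.696, 49.1 and 8.61 in the Csf2rb2 arrays, against 3.61 to 11.6 with a median of 4.73 in the neuron arrays (log2 difference 1.62 ± 0.30 SE, adjusted p = 9.3e-05), a call that was lost without that array. Cx3cl1, fractalkine, the neuronal ligand of CX3CR1, ran the opposite way with 5.59, 8.73 and 11.3 in the Csf2rb2 arrays, against 11.7 to 73.9 with a median of 30.9 in the neuron arrays (log2 difference -1.77 ± 0.18 SE, adjusted p = 5.3e-09), all microglia arrays lying below all neurons although the call was lost with 1 mean per line. Ccl2 rose (1.42) and Ccl7 was not called (-0.36). With the floor at the median of all values the calls of Ccl2, Tnf and Il1b were lost.

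Of the receptors for chemokines and cytokines, 14 of 20 rose and 0 fell (23 listed). Ifngr1, a chain of the interferon gamma receptor, read 373, 200.4 and 236 in the Csf2rb2 arrays, against 8.76 to 37.1 with a median of 13.9 in the neuron arrays (log2 difference 4.14 ± 0.22 SE, adjusted p = 1.1e-14). Il10rb, a chain of the interleukin 10 receptor, read 237, 234 and 207 in the Csf2rb2 arrays, against 4.67 to 61.7 with a median of 8.20 in the neuron arrays (log2 difference 4.39 ± 0.25 SE, adjusted p = 2.4e-14). Ccr1, a receptor for CCL3, read 43.1, 38.8 and 44.2 in the Csf2rb2 arrays, against 2.24 to 10.9 with a median of 3.79 in the neuron arrays (log2 difference 3.26 ± 0.17 SE, adjusted p = 5.0e-15). The groups of all 3 genes were apart. Tgfbr1 and Tgfbr2, the receptors for the TGF-beta on which microglial identity depends, rose by 2.29 and 1.58. Cxcr4, the receptor for CXCL12, read 8.297, 65.7 and 15.4 in the Csf2rb2 arrays, against 4.18 to 10.9 with a median of 7.399 in the neuron arrays (1.49), and its call was lost without replicate 2.

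Fc receptor and ITAM signalling genes rose in 17 of 19 tested members and fell in 0 (22 listed, median 4.23). Fcgr1, the high-affinity receptor for IgG, read 457, 453 and 481 in the Csf2rb2 arrays, against 4.98 to 52.3 with a median of 7.32 in the neuron arrays (log2 difference 5.84 ± 0.29 SE, adjusted p = 2.2e-15). Fcgr3 read 442, 665 and 824 in the Csf2rb2 arrays, against 3.67 to 48.1 with a median of 7.56 in the neuron arrays (log2 difference 6.20 ± 0.30 SE, adjusted p = 1.1e-15). Fcer1g, the signalling chain shared by Fc receptors, read 545, 796 and 557 in the Csf2rb2 arrays, against 6.28 to 54.8 with a median of 9.59 in the neuron arrays (log2 difference 5.90 ± 0.27 SE, adjusted p = 2.3e-16). Every microglia array exceeded every neuron array for these genes, with Grik4 the highest neuron line. Fcgr2b, the inhibitory receptor, and Fcgr4 rose by 5.06 and 4.90; these receptors are similar in sequence, so their probes may share signal. Trem2, Ptpn6, Fyb and Vav1 rose by 4.81, 4.97, 4.23 and 3.74. Lilrb4a, an inhibitory receptor with a close paralog, was lower in replicate 2 than in the others, with 334, 67.5 and 369 in the Csf2rb2 arrays (5.30). Syk, the kinase downstream of the ITAM adaptors, was not called, at 0.49. Fgr, at 0.99, fell just short of the size required for a call and was called higher in 9 alternative fits.

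Lysosomal and lipid-handling genes rose in 21 of 24 tested members and fell in 0 (28 listed, median 3.10). Cd68, a lysosomal membrane protein of macrophages, read 799, 1255 and 1044 in the Csf2rb2 arrays, against 6.37 to 182 with a median of 12.4 in the neuron arrays (log2 difference 6.10 ± 0.29 SE, adjusted p = 1.0e-15). Grn, which encodes progranulin, read 1379, 1095 and 1198 in the Csf2rb2 arrays, against 21.9 to 193 with a median of 70.99 in the neuron arrays (log2 difference 4.14 ± 0.31 SE, adjusted p = 1.6e-11). Apoe, the lipid carrier, read 2583, 4902 and 2744 in the Csf2rb2 arrays, against 38.03 to 1742 with a median of 153 in the neuron arrays (log2 difference 3.95 ± 0.47 SE, adjusted p = 1.2e-07). Ctsd, cathepsin D, read 2236, 2437 and 2330.1 in the Csf2rb2 arrays, against 109 to 677 with a median of 223 in the neuron arrays (log2 difference 3.31 ± 0.20 SE, adjusted p = 1.7e-13). Although neurons had clear intensities for these 3 genes, no neuron array reached a microglia array. Ctsc, Npc2, Hexa, Lamp1, Ctsb and Ctsl rose by 6.24, 3.74, 2.88, 2.50, 2.41 and 1.94. Cst3, cystatin C, had 5320.3, 4552 and 4902 in the Csf2rb2 arrays and a wide spread of 2.21 to 2505 with a median of 958 in the neurons (log2 difference 2.86 ± 1.06 SE, adjusted p = 0.04), and its call was lost in 8 of 59 alternative fits, each Csf2rb2 array left out among them. Cd63, a tetraspanin of late endosomes, and Lipa, lysosomal acid lipase, were not called (0.87 and 0.55).

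All 11 tested antigen presentation genes rose (16 listed, median 1.94), but replicate 3 weighed on several. Ciita and Cd80 were too dim in all 11 lines to be tested. Cd86, a co-stimulatory ligand of T cells, read 261, 320.1 and 348 in the Csf2rb2 arrays, against 2.66 to 23.8 with a median of 4.54 in the neuron arrays (log2 difference 5.91 ± 0.26 SE, adjusted p = 1.6e-16). H2-Ab1, a class II chain, read 264, 289.8 and 311 in the Csf2rb2 arrays, against 3.89 to 32.6 with a median of 7.46 in the neuron arrays (log2 difference 4.86 ± 0.20 SE, adjusted p = 5.7e-17). B2m, the light chain of class I molecules, read 2537, 2847 and 3382 in the Csf2rb2 arrays, against 22.1 to 1342 with a median of 90.6 in the neuron arrays (log2 difference 4.74 ± 0.45 SE, adjusted p = 1.3e-09). These 3 were even across the microglia arrays and did not overlap with neurons. H2-Aa, the partner chain of H2-Ab1, read 3.02, 3.84 and 95.2 in the Csf2rb2 arrays, against 3.099 to 7.401 with a median of 4.59 in the neuron arrays (log2 difference 1.25 ± 0.47 SE, adjusted p = 0.04). Cd74, the invariant chain, read 8.27, 14.4 and 55.2 in the Csf2rb2 arrays, against 4.43 to 9.54 with a median of 5.61 in the neuron arrays (log2 difference 1.70 ± 0.28 SE, adjusted p = 2.2e-05). Both were high in replicate 3 and at or near the neuron range in the others. Without replicate 3 the H2-Aa difference was -0.27, and the Cd74 call was lost, leaving 8 of the 11 genes called. The H2-Aa call was also lost in 10 other alternative fits. Monocyte markers are high in the same array, and their part was not tested.

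Purinergic receptors and channels rose in 10 of 16 tested members and fell in 0 (20 listed). P2ry6, the UDP receptor that triggers phagocytosis, read 878, 667 and 892 in the Csf2rb2 arrays, against 3.46 to 33.8 with a median of 11.01 in the neuron arrays (log2 difference 6.17 ± 0.25 SE, adjusted p = 3.7e-17), widely apart from the neurons. P2rx7, the ATP-gated channel, read 53.3, 42.7 and 19.1 in the Csf2rb2 arrays, against 4.09 to 9.68 with a median of 7.24 in the neuron arrays (log2 difference 2.27 ± 0.19 SE, adjusted p = 1.2e-10), also without overlap, and P2rx4 rose by 1.60 with overlap and was lost with 1 mean per line. Kcnk13, the potassium channel THIK-1 of microglia, rose by 1.81. Hvcn1, the voltage-gated proton channel, was high in replicate 2, with 8.01, 62.2 and 12.9 in the Csf2rb2 arrays (1.82), and lost its call without it. Leukocyte motility and integrin genes rose in 16 of 20 tested members and fell in 0 (23 listed). Arhgdib, a regulator of small GTPases in blood cells, read 164, 160.2 and 190.4 in the Csf2rb2 arrays, against 0.155 to 19.98 with a median of 5.28 in the neuron arrays (log2 difference 4.87 ± 0.24 SE, adjusted p = 1.5e-15). Coro1a, Arpc1b, Itgb5 and Rac2 rose by 4.07, 3.80, 3.66 and 2.51, of which Coro1a and Itgb5 were lost with 1 mean per line.

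NADPH oxidase and eicosanoid genes rose in 12 of 16 tested members and fell in 0 (18 listed). Cyba, the p22phox subunit, read 1469, 1629.6 and 1829.8 in the Csf2rb2 arrays, against 9.25 to 344 with a median of 19.5 in the neuron arrays (log2 difference 6.00 ± 0.51 SE, adjusted p = 1.8e-10). Ncf4, the p40phox subunit, read 329, 241 and 338 in the Csf2rb2 arrays, against 3.42 to 11.1 with a median of 5.25 in the neuron arrays (log2 difference 5.76 ± 0.20 SE, adjusted p = 1.2e-18). Cybb, the catalytic subunit, had a smaller difference and overlapped, with 29.7, 7.79 and 24.4 in the Csf2rb2 arrays, against 0.864 to 11.01 with a median of 5.82 in the neuron arrays (1.60). Alox5ap, needed for leukotriene synthesis, read 748, 1044 and 859 in the Csf2rb2 arrays, against 4.85 to 35.8 with a median of 10.6 in the neuron arrays (log2 difference 6.17 ± 0.26 SE, adjusted p = 3.7e-17). Ltc4s, Tbxas1 and Hpgds, enzymes that make leukotriene C4, thromboxane and prostaglandin D2, rose by 5.97, 4.21 and 3.88, so that several branches of the pathway were represented. The 4 members not called had differences from -0.28 to -0.02.

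A list of genes known to rise in disease-associated microglia was measured in these retinas. Of 15 tested members 13 were called higher than in neurons and 0 lower (18 listed, median 2.41), a comparison with neurons that says nothing of the state of the microglia. Cd9, a tetraspanin, read 909, 735 and 597 in the Csf2rb2 arrays, against 4.05 to 119 with a median of 7.97 in the neuron arrays (log2 difference 5.90 ± 0.51 SE, adjusted p = 2.4e-10). Cst7, cystatin F, was uneven with 10.52, 102 and 123 in the Csf2rb2 arrays, against 4.13 to 10.6 with a median of 5.54 in the neuron arrays (log2 difference 3.09 ± 0.39 SE, adjusted p = 3.2e-07), replicate 1 lying within the neuron range. Lgals3, galectin 3, had 32.5, 56.7 and 118 in the Csf2rb2 arrays and rose by 1.86, with replicate 3 the highest. Lpl and Igf1 rose by 2.05 and 1.61, both lost with 1 mean per line, and Gpnmb was not called (0.61). The list shares Trem2, Apoe, Ctsb, Ctsd and other members with the lists above.

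Interferon response genes did not move together: of 12 tested, 3 rose and 1 fell (16 listed, median -0.08, against -0.06 over all tested probe sets). Ifitm3 read 40.01, 29.4 and 650.0 in the Csf2rb2 arrays, against 2.64 to 252 with a median of 4.88 in the neuron arrays (log2 difference 3.21 ± 0.53 SE, adjusted p = 2.0e-05), again highest in replicate 3 by a wide margin. Its call was lost with 1 mean per line, and Bst2 rose by 2.64. Oas1a rose by 1.17, and its call was lost with 1 mean per line, without replicate 3 and without the lines Lhx4, Crh and Drd4 together. Irf7 read 7.61, 5.15 and 74.9 in the Csf2rb2 arrays, against 3.13 to 34.1 with a median of 6.26 in the neuron arrays and was not called, at 0.78 with all arrays and -0.42 without replicate 3. Ifit3 was called lower (-1.32), a call that was lost in 13 of the 59 alternative fits. Immediate early and stress genes, which cell dissociation can induce, rose in 8 of 18 tested members and fell in 2 (20 listed). Over all tested probe sets 8.42% were called higher and 10.4% lower. In this list 2 members rose without overlap, and with 1 mean per line 3 members were called higher. Nfkbia, the inhibitor of NF-kappa B, read 223, 342 and 188 in the Csf2rb2 arrays, against 3.52 to 104.6 with a median of 30.5 in the neuron arrays (log2 difference 3.06 ± 0.41 SE, adjusted p = 8.6e-07). Atf3, a stress-induced transcription factor, read 21.8, 132 and 39.4 in the Csf2rb2 arrays, against 4.93 to 23.02 with a median of 7.08 in the neuron arrays (log2 difference 2.67 ± 0.35 SE, adjusted p = 6.0e-07). Replicate 2 was the highest for both. Btg2 and Jun rose by 2.67 and 1.52 and were lost with 1 mean per line, and Hspa1a and Dusp1, called lower, lost their calls in 12 and 25 alternative fits. Of 8 tested proliferation genes 0 were called, with differences from -0.87 to 0.90; Cdk1, which drives entry into mitosis, was called higher without replicate 1.

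**Figure D4:**
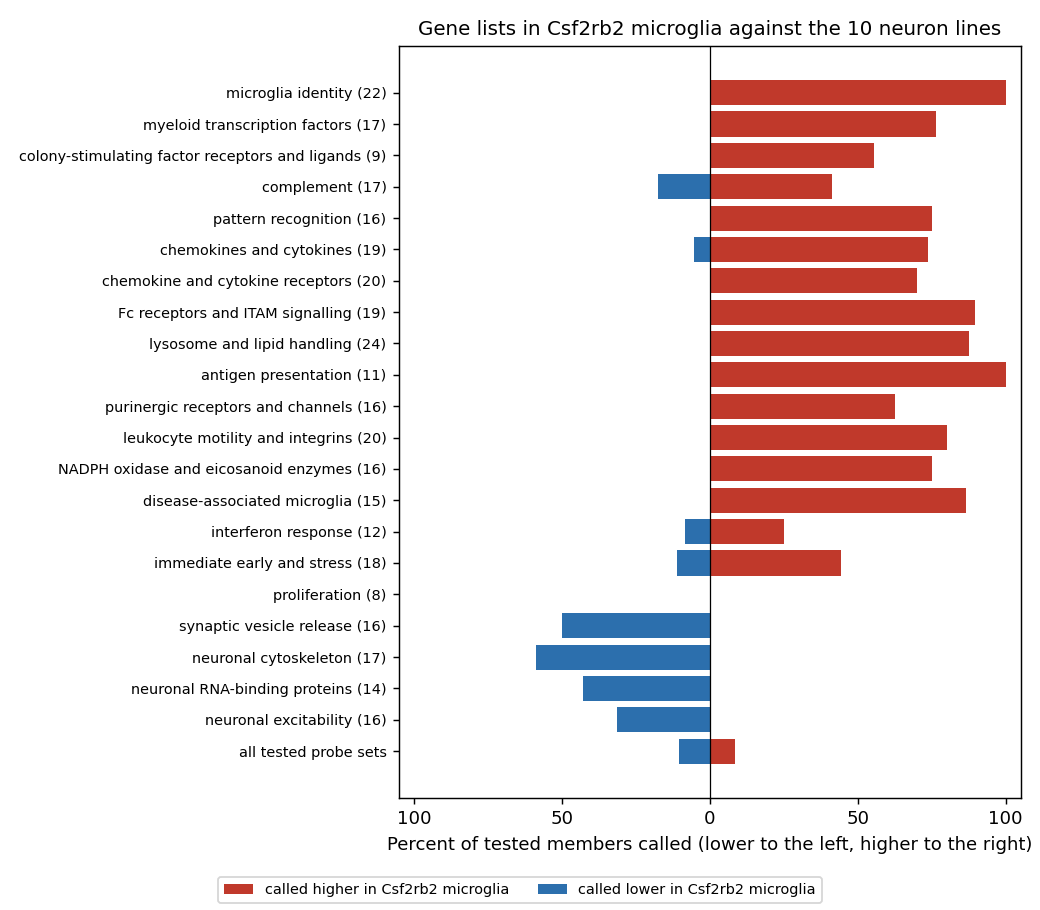
Percent of the tested members of each list (number in brackets) called higher (red, right) or lower (blue, left) in Csf2rb2 microglia than in the 10 neuron lines, with all tested probe sets in the bottom row (8.42% and 10.4%). Immune and lysosomal lists lie to the right, neuronal lists to the left, and proliferation has no called member.

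Many genes of neuronal function were lower in microglia, with 0 of the tested members higher in any of 4 lists. Over all tested probe sets 10.4% were called lower and 8.42% higher. For synaptic vesicle release 8 of 16 tested genes fell (20 listed, median -1.20). Snap25, a SNARE protein, read 16.5, 30.2 and 8.47 in the Csf2rb2 arrays, against 104.6 to 688 with a median of 277 in the neuron arrays (log2 difference -4.15 ± 0.24 SE, adjusted p = 4.2e-14). Rab3a, a vesicle GTPase, read 6.91, 16.5 and 8.65 in the Csf2rb2 arrays, against 80.1 to 230.2 with a median of 132 in the neuron arrays (log2 difference -3.69 ± 0.19 SE, adjusted p = 6.2e-15). Syt1, the calcium sensor of release, read 1.49, 1.47 and 8.88 in the Csf2rb2 arrays, against 50.02 to 298 with a median of 115 in the neuron arrays, with a difference of at least -4.52 since 2 of the microglia arrays were below the floor. The microglia arrays lay below all 30 neuron arrays for all 3 genes. Syp, Nsf and Syt11 fell without overlap, with differences of -1.55, -2.06 and -2.56. Cplx3, the complexin of ribbon synapses and amacrine cells, overlapped with 13.7, 33.2 and 19.3 in the Csf2rb2 arrays, against 17.8 to 1318 with a median of 699 in the neuron arrays (-4.36) and was lost with 1 mean per line.

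Cytoskeletal genes of neurons fell in 10 of 17 tested members (18 listed, median -1.32). Tubb3, a neuronal tubulin, read 21.7, 7.93 and 30.1 in the Csf2rb2 arrays, against 59.4 to 980.4 with a median of 144 in the neuron arrays (log2 difference -3.46 ± 0.28 SE, adjusted p = 9.1e-11). Uchl1, an abundant deubiquitinase of neurons, read 22.5, 7.75 and 11.05 in the Csf2rb2 arrays, against 26.98 to 815 with a median of 211 in the neuron arrays (log2 difference -4.04 ± 0.22 SE, adjusted p = 9.8e-15). Mapt, which encodes tau, read 20.6, 26.7 and 15.7 in the Csf2rb2 arrays, against 35.3 to 104 with a median of 67.9 in the neuron arrays (log2 difference -1.70 ± 0.19 SE, adjusted p = 3.6e-08). All microglia arrays were below all neurons for these genes. Stmn2, Ina and Gap43 fell with overlap, with differences of -2.45, -3.33 and -1.97. RNA-binding proteins of neurons fell in 6 of 14 tested members (14 listed), Celf4 without overlap at 13.2, 11.1 and 10.4 in the Csf2rb2 arrays, against 17.7 to 118 with a median of 67.6 in the neuron arrays (log2 difference -2.29 ± 0.20 SE, adjusted p = 2.8e-10) and Elavl4 with overlap (-1.91), whereas Rbfox3, the NeuN antigen, was not called (-0.71). Excitability genes fell in 5 of 16 tested members (21 listed), Eno2, the neuronal enolase, at 7.78, 11.2 and 17.8 in the Csf2rb2 arrays, against 32.1 to 145 with a median of 104 in the neuron arrays (log2 difference -2.95 ± 0.21 SE, adjusted p = 4.5e-12), and Atp1b1, a sodium pump subunit, at -2.97. With 1 mean per line, where the neuron lines' own variety enters the error, the calls of Tubb3, Uchl1, Stmn2, Ina, Gap43, Celf4, Elavl4, Atp1b1 and Thy1 were lost. In that fit the 4 lists kept 7, 3, 0 and 1 called members. Of all 14655 tested probe sets 1382 were called there, 768 of them higher. Of the markers of single neuron classes, 6 of 8 amacrine, 4 of 8 ganglion, 6 of 9 bipolar and 2 of 6 horizontal markers were called lower. Called higher were 0 of them, and of all tested probe sets 10.4% were called lower. Without overlap fell 0, 0, 0 and 1 of them. With 1 mean per line the amacrine count was 0. Over all alternatives the lowest ganglion, bipolar and horizontal counts were 0, 0 and 1. Mean Csf2rb2 sums exceeded the lowest neuron line for amacrine (147 against 124), ganglion (165 against 75.5) and bipolar markers (170 against 85.6). For horizontal markers the sum lay below it, at 59.8 against 173.9.

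The 15 genes with the largest decrease without overlap were not led by synaptic genes. Amy1, which encodes an amylase, read 0.115, 0.889 and 0.412 in the Csf2rb2 arrays, against 256 to 1841 with a median of 1084 in the neuron arrays, a difference of at least -7.74 (0.22 SE, adjusted p = 3.7e-20). Arxes1, a small X-linked gene with the near-identical neighbour Arxes2, read 0.0246, 0.0896 and 0.0896 in the Csf2rb2 arrays, against 317 to 1329.9 with a median of 827 in the neuron arrays, at least -7.59. Arxes2, which shares most of its sequence, fell, with a difference of at least -5.65. Microglia values below the floor have no order among themselves. Asns, asparagine synthetase, read 3.87, 5.205 and 6.35 in the Csf2rb2 arrays, against 70.97 to 961 with a median of 458 in the neuron arrays (log2 difference -6.21 ± 0.24 SE, adjusted p = 1.5e-17). Tagln3, a neuronal relative of transgelin, read 14.98, 45.1 and 10.7 in the Csf2rb2 arrays, against 247 to 2537 with a median of 1234 in the neuron arrays (log2 difference -5.76 ± 0.23 SE, adjusted p = 1.4e-17). For both genes the lowest neuron array, whatever its class, was above every microglia array. Cpe, carboxypeptidase E of neuropeptide processing, Aldoc, the glycolytic enzyme aldolase C, Ankrd37 and Asphd1 fell, with differences of at least -5.70, -5.33, -5.95 and -5.52. The others were Psd3 (-5.74), Srgap3 (-5.61), Slc35g2 (-4.99), Nudt11 (-4.83), Rnf208 (-4.76) and Mgarp (-4.73), of which Srgap3 encodes a GTPase-activating protein of the Slit and Robo pathway. Replicates could differ widely in these genes: Srgap3 read 5.57, 55.8 and 316 and Cpe 0.0623, 126 and 58.7 in the Csf2rb2 arrays. The calls of all 15 held in each of the 59 alternative fits, which again reuse the arrays that chose them.

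The 3 microglia arrays correlated with each other at 0.875 to 0.885 (Pearson, log2 over the tested probe sets, as a description), and with the neuron arrays at 0.483 to 0.743. The highest replicate exceeded the lowest by a median factor of 1.59 over all tested probe sets and 1.57 over those called higher without overlap, with 90% of the last set within 2.7. At 4-fold or more above both other replicates stood 124 probe sets in replicate 3, 69 in replicate 1 and 65 in replicate 2. In replicate 3 these included Plac8, H2-Aa and Ifitm3 and, picked out after their values were seen, Chil3, a chitinase-like protein of myeloid cells, with 19.1, 42.5 and 1005 in the Csf2rb2 arrays, against 2.97 to 10.3 with a median of 4.83 in the neuron arrays (log2 difference 4.20 ± 0.54 SE, adjusted p = 3.6e-07). In replicate 2 they included Retnlg, Cxcl10, Tnf and Hvcn1. Pf4, a chemokine of platelets and perivascular macrophages, was highest in replicate 1 at 44.6, 12.8 and 4.45 in the Csf2rb2 arrays, against 3.08 to 13.1 with a median of 4.34 in the neuron arrays (1.48), and lost its call without it and with the floor at the median of all values. C1qc, Tyrobp and Aif1 of the identity list had values close to each other in all 3 replicates.

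**Figure D5:**
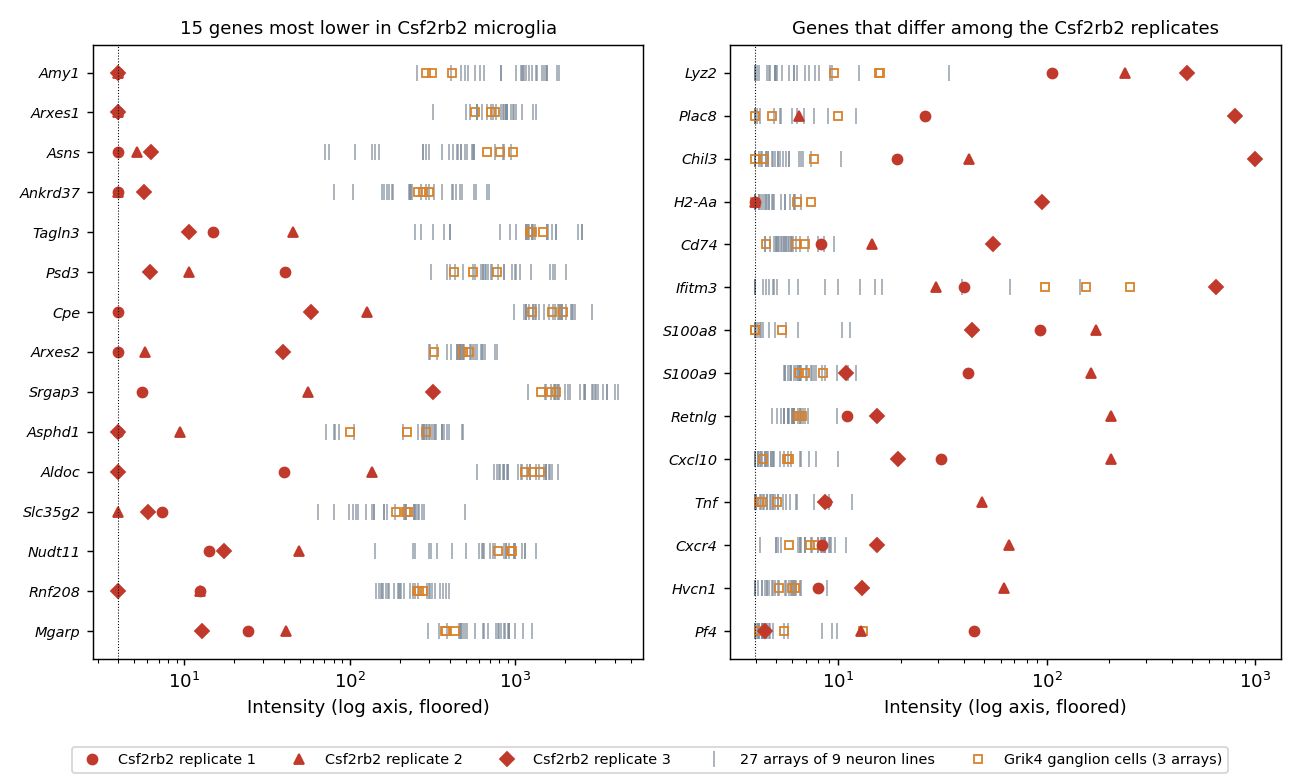
Intensity (log axis, values below the dotted floor drawn at it) in each batch 3 array, with the 3 Csf2rb2 replicates as separate red symbols. Left, the 15 genes with the largest decrease, with Csf2rb2 arrays below all neurons; right, 14 genes that differ among the Csf2rb2 replicates, high in replicate 3 (Plac8, Chil3, H2-Aa), in replicate 2 (Retnlg, Cxcl10, Tnf) or in replicate 1 (Pf4).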

How the data were processed

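The authors deposited 1 table of linear intensity values per probe set, 22347 rows by 78 arrays, and per the submitters' processing notes R 2.11.1, RMA, oligo and the mm9 build were used; settings are not given in the sources used here. All columns held the same sorted values, so the deposited intensities had been quantile normalized over all arrays, which forces an equal distribution on microglia and neurons. From them, log2 values were taken after a floor at 3.99, below which 10.5% of values per array lay; "at least" marks a difference that the floor shortened by over 1.5-fold. Probe sets with 1 gene symbol (19446; 735 carried several and 2166 none) entered the test where at least 1 line averaged above the median of all values. limma 3.58.1 in R 4.3.3 was fitted to 33 arrays, contrasting Csf2rb2 with the unweighted mean of 10 lines, with empirical Bayes moderation and Benjamini-Hochberg adjustment. The script was tested on simulated data. Replicate numbers were not used to pair arrays. Residuals of equally numbered arrays of different lines correlated at -0.0063 on average, others at 0.0036. Such averages over all pairs of lines cannot exclude pairing in some of them. Sums over markers are sums of linear intensities. Named were the 15 largest called differences without overlap in each direction and members of gene lists. Each listed gene was counted by 1 probe set, the tested one with the highest mean over the 33 arrays. Several tested probe sets were present for 96 genes, with calls that differed for 27 and ran both ways for 1. Members and lists were chosen with earlier results of these data known, and their counts are descriptions beside the share over all probe sets. Of 14551 tested genes, 11591 had a RefSeq promoter window. Alternatives varied the floor, filter, centring, weights, lines, arrays, replicate block and unit of replication. The number of arrays limits the precision.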

Additional observations from a re-analysis of the deposited data

How the results depend on the processing

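The counts of called probe sets were recomputed under 59 alternatives. Leaving out each of the 33 arrays gave 2693 to 2867 called probe sets, 1203 to 1316 higher and 1465 to 1551 lower, and 1309 to 1759 whose groups did not overlap; leaving out each line gave 2714 to 2834 called. The replicate block gave 2756 called, 1230 higher and 1526 lower, and changed no call of a named gene. Of these alternatives, only the fit on 1 mean per line moved the counts of calls by over 1.5 times, to 1382 called, 768 higher and 614 lower, with 3106 at an unadjusted p below 0.05; there the variety among neuron lines enters the error. With only the GFP lines, so fewer neuron arrays, 2315 probe sets did not overlap. Without Lhx4, Crh and Drd4, whose arrays correlated with each other below 0.85 at the lowest (chosen after seeing the data), 2773 were called. Of 198 named genes, 147 kept their direction and side of the threshold in all alternatives that gave a value, 45 lost a call in at least 1 and 4 gained one. Over the arrays left out in turn, the difference ranged from -0.13 to 1.00 for Tfec (negative without replicate 2) and, negative without replicate 3, from -0.27 to 2.02 for H2-Aa, from -0.42 to 1.51 for Irf7 and from -0.13 to 1.01 for Ccr2; the cause was not tested.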

Other observations

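Clu, which encodes the secreted chaperone clusterin and served as a Müller glia marker, read 112, 69.3 and 0.660 in the Csf2rb2 arrays, against 233 to 1601 with a median of 386 in the neuron arrays, a log2 difference of at least -3.75 (SE 0.51, adjusted p = 1.1e-06 by limma), so microglia lay below every neuron line. Gngt2, listed as a cone marker because it encodes the gamma subunit of cone transducin, read 142, 178 and 206 in the Csf2rb2 arrays, against 0.967 to 18.2 with a median of 3.96 in the neuron arrays (log2 difference 5.14, SE 0.19, adjusted p = 2.5e-18). Of the other 9 cone markers, Opn1sw, Pde6h and Pde6c were at or below the floor in all 3 Csf2rb2 arrays. Their neuron medians lay below the floor too, with highest neuron arrays of 398, 160 and 4.02. Arr3, cone arrestin, read 5.99, 35.3 and 11.2 in the Csf2rb2 arrays, against 0.0238 to 83.5 with a median of 1.02 in the neuron arrays, and was not called (adjusted p = 0.11). Gnb3, the beta subunit of cone transducin, read 12.7, 22.2 and 28.3 in the Csf2rb2 arrays, against 0.0729 to 597 with a median of 29.8 in the neuron arrays, and was not called (adjusted p = 0.23). Opn1mw read 21.4 in replicate 2 and Gnat2 read 7.94 in replicate 3, with both other arrays of each at or below the floor, and Cngb3 and Cnga3 stayed within the neuron range. The 10 cone markers summed to 174, 269 and 266 in the Csf2rb2 arrays, against 24.8 to 1204 with a median of 107 in the neuron arrays; the part of cone RNA in the Gngt2 result was not tested. Clu and Gngt2 kept their calls in all 59 alternative fits.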
